A study of Rattus norvegicus with 12 samples.

Results

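The comparison described here set livers of rats fed 1% wakame against livers of rats fed 0.1% wakame, and asked on which genes the larger dose differed from the smaller one. Its members were the 4 arrays of the 1% diet and the 4 arrays of the 0.1% diet, 8 of the 12 arrays in the series, chosen by their diet labels. The 4 arrays of the control diet are given beside them. Wakame is an edible brown seaweed, and it was added as powder to a purified diet of the AIN-93G type that all 3 groups ate. The animals were male Sprague Dawley rats, an outbred laboratory strain, with no genetic change named. They arrived at 4 weeks of age, were acclimatized for 1 week, ate their diet for 28 days and were 9 weeks old at the end. Each array held liver RNA of a separate rat, measured on an Affymetrix rat expression array from 100 ng of RNA. The diets were fed to 6 rats each, housed 3 to a cage, and the effects of cage and of diet cannot be told apart. Each array carries probe sets, groups of short probes aimed at 1 transcript, and the values are log2 signals.

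Of 31042 probe sets that are not controls of the manufacturer, 27802 had a standard deviation of at most 0.01 log2 over the 12 arrays. These are counted as unmeasured here, since their values hardly differ for a reason that the sources used here do not give. The other 3240 are called varying. All differences below are the mean log2 value of the 1% diet minus that of the 0.1% diet, with the standard error (SE) of a limma fit, n = 4 arrays per diet and adjusted p by the Benjamini-Hochberg method over the 3240. Between the doses 0 of 3240 varying probe sets (0%) had an adjusted p under 0.05, and the lowest adjusted p was 0.246. At an unadjusted p under 0.05 there were 219 (6.76%), of which 120 were higher at 1% (3.7%) and 99 lower (3.06%). The 4 arrays of each diet did not overlap in 122 probe sets (3.77%), 59 of them higher at 1% (1.82%) and 63 lower (1.94%). Leaving out any 1 of the 8 arrays raised that count to between 188 and 282, since fewer arrays then had to be apart. The genes below are therefore described by their values, and none of them passed the test between the doses.

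As background to genes described below, growth hormone reaches the liver in pulses, acts through the kinase JAK2 and the transcription factor STAT5, and raises Socs2, a feedback inhibitor of its own receptor. Bcl6, a zinc finger repressor that growth hormone lowers in liver, binds many of the sites that STAT5 binds. Glucocorticoids act through Nr3c1, the glucocorticoid receptor, and Tat, tyrosine aminotransferase, is a classical gene that they raise in liver.

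To place the members in the genome, promoter windows from the RefSeq table of the rat assembly GRCr8 are shown for 4 of the genes described below: Bcl6 and Foxp1, whose means were higher at 1%, and Tat and Tfrc, whose means were lower at 1%. Of the 24 genes that lead the comparison, 21 had a window in that table. Each window holds the 250 bases before the annotated start, 5′ to 3′ on the gene's strand, and capitals mark motif matches. Bcl6 lies on the plus strand (chr11:90358503-90358752), Foxp1 on the minus strand (chr4:133353281-133353530), Tat on the plus strand (chr19:54856354-54856603) and Tfrc on the minus strand (chr11:81690319-81690568).
Bcl6: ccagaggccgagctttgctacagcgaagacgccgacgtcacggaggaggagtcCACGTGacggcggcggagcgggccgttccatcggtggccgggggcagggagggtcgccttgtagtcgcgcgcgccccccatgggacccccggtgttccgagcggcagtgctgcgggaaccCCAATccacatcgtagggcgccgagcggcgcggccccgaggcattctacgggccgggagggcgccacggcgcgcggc
Foxp1: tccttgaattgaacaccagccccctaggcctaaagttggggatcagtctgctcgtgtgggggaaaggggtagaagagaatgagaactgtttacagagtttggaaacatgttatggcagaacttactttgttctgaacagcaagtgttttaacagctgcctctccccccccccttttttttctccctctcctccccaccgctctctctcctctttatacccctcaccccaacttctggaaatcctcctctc
Tat: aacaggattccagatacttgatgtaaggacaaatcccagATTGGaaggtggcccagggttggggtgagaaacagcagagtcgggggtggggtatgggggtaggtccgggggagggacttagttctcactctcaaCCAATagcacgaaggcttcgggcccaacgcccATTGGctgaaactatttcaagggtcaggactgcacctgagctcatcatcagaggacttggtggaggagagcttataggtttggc
Tfrc: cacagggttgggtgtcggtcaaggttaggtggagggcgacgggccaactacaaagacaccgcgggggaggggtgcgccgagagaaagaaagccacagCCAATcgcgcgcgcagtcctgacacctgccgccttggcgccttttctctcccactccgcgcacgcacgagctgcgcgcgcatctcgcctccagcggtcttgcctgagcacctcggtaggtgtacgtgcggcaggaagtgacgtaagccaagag
Both strands were searched for the E-box CACGTG, the D-box TTATGTAA, the RORE core AGGTCA, the sterol element TCACCCCAC, the CCAAT box (the letters in its name) and, added after the values were seen, the STAT5 element TTCNNNGAA. Of the 33469 windows in the table, 5.59% held the E-box, 0.828% the D-box, 14.1% the RORE core, 0.409% the sterol element, 34% the CCAAT box and 7.67% the STAT5 element. The Bcl6 window held an E-box whose first base lies 197 bases before the start and a CCAAT box at 77. Tat held CCAAT boxes at 211, 116 and 84 bases before the start, and Tfrc held 1 at 153. These matches did not overlap each other. The letters of the motifs searched were not in the Foxp1 window. A match describes the sequence and is no evidence of binding.

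The arrays were first compared over the varying probe sets. Arrays of 1 diet correlated at 0.911 to 0.961, and the first principal component, which took 25.0% of the variance, averaged 2.01 ± 10.45 in the 0.1% diet and 11.35 ± 5.60 in the 1% diet (SD, n = 4, two-sided exact permutation p = 0.143). The fourth array of the 0.1% diet, at 16.31, lay among the arrays of the 1% diet, which ran from 6.58 to 18.11, and the other 0.1% arrays ran from −7.91 to 2.59. Without it 0 probe sets passed in limma, 246 had an unadjusted p under 0.05 and 258 did not overlap. The 3′ minus 5′ signal of Gapdh, a sign of RNA integrity, was 1.08 ± 0.10 in the 0.1% diet and 1.21 ± 0.16 in the 1% diet (SD, n = 4, two-sided exact permutation p = 0.257). With it as a covariate, 0 probe sets passed in limma and 178 had an unadjusted p under 0.05. The covariate moved the difference by over 1.5 times in 0 of the 24 leading genes and in 30 of the 72 other named genes. Leaving out 1 array did so in 0 of the 24 and 42 of the 72. The 24 were picked for non-overlapping doses and a small p, whereas many of the 72 had differences near 0. These counts therefore cannot show that the leading genes depend less on RNA quality or on single rats. The hepatocyte markers Alb, Ttr, Serpina1, Ahsg and Apoa1 averaged between 12.9 and 14.6 log2, among the brightest probe sets, as the tissue label says. Of these only Apoa1 varied, so the others describe a level and no difference between diets. Hnf4a, a further hepatocyte marker, averaged 11.5 in its brightest probe set and 7.32 and 7.38 in the others. Of the markers of Kupffer cells and macrophages 16 of 16 genes lay above the median of the table, and of the endothelial markers 13 of 14. For stellate cells and fibroblasts it was 15 of 18, for cholangiocytes 5 of 9 and for erythroid cells 3 of 7. Of the lymphocyte markers 5 of 17 genes lay above it, of the neutrophil and mast cell markers 2 of 10, and of the adipose, muscle and pancreas markers 2 of 16. These counts include probe sets counted as unmeasured. In whole liver, fewer cells of a type and less RNA per cell cannot be told apart.

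Bcl6 held the widest difference among the 24 leading genes. Its values in the 4 rats of the 1% diet were 10.22, 12.02, 12.12 and 11.38, and in the 0.1% diet 7.11, 7.06, 10.18 and 10.13. In the control diet they were 6.34, 6.72, 5.57 and 6.26. The 0.1% rats were split, with 2 near the control values and 2 just under the lowest 1% rat, so the doses did not overlap but nearly met. The difference was 2.82 ± 0.77 log2 (95% interval 1.11 to 4.52, limma adjusted p = 0.514), and the control mean, 6.22, lay below the array medians of about 6.59, where no background signal was available.

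Spink1, a secreted inhibitor of trypsin, had the lowest p of the genes with a symbol. Rats of the 0.1% diet had values of 7.18, 5.97, 6.10 and 6.46, against 8.84, 7.59, 8.76 and 8.19 in the 1% diet and 8.15, 8.74, 7.97 and 7.58 in the control diet. The 0.1% rats were the low ones, below every rat of both other diets, and the 1% and control rats overlapped. The difference between the doses was 1.92 ± 0.35 log2 (95% interval 1.136 to 2.703, limma adjusted p = 0.246). A second probe set of Spink1 gave 1.66 ± 0.36, also without overlap. The third, its brightest, gave 0.96 ± 0.48, with means of 7.91 in control, 8.17 in the 0.1% diet and 9.13 in the 1% diet. The low level at 0.1% was thus seen by 2 of its 3 probe sets. The 0.1% means of those 2, 6.43 and 6.54, lie near the array medians of about 6.59, where no background signal was available.

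Transcription factors of the hepatocyte made up a further group of the leading genes that were higher at 1%. Foxp1, a forkhead repressor, was at 8.61, 8.85, 8.41 and 8.88 in the 1% diet, at 7.71, 7.50, 8.27 and 8.21 in the 0.1% diet and at 7.84, 7.66, 7.95 and 7.95 in control. All 4 rats of the 1% diet lay above all others, and the difference between the doses was 0.76 ± 0.18 (95% interval 0.37 to 1.16, adjusted p = 0.420). Other probe sets of Foxp1 gave 0.74 ± 0.18 and 0.48 ± 0.13. Zbtb20, a zinc finger repressor that silences alpha-fetoprotein in the adult liver, was at 9.73, 9.74, 9.53 and 9.44 in the 1% diet, at 9.35, 9.02, 9.27 and 9.24 in the 0.1% diet and at 9.24, 9.06, 9.42 and 9.31 in control. Its difference was 0.39 ± 0.10, and its other 3 probe sets lay in the same direction, at 0.44, 0.24 and 0.20. Nr5a2, a nuclear receptor that supports bile acid synthesis, was higher at 1% by 0.38 ± 0.13 with no overlap, at means of 8.90 in control, 9.11 at 0.1% and 9.50 at 1%, while its dimmer probe set differed by 0.01 ± 0.07. Onecut1, the hepatocyte factor HNF6, lay in the opposite direction, at 9.48, 7.66, 7.23 and 8.15 in the 1% diet and 9.82, 10.53, 8.63 and 9.18 in the 0.1% diet. Its control values, 10.97, 11.07, 10.91 and 12.23, were above all rats of both doses, and the doses overlapped (−1.41 ± 0.54, adjusted p = 0.647). In the list of hepatocyte transcription factors 17 genes varied, 10 of them higher and 7 lower at 1%, with a median difference of 0.10 beside −0.00 over all 2301 varying genes. The 5 with an unadjusted p under 0.05 (29.4%, beside 6.00% of all varying genes) were Foxp1, Zbtb20, Nr5a2, Bcl6 and Onecut1. The doses did not overlap in 4 (23.5%, beside 3.56% of all varying genes). The list was chosen with earlier results of these data known, and Foxp1, Zbtb20 and Bcl6 were already named here for their lack of overlap. These shares therefore do not show that hepatocyte factors as a group differed more than other genes.

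The other leading genes that were higher at 1% differed by less than 1 log2 unit. Masp1, a protease of the lectin pathway of complement, was at 9.90, 9.82, 9.76 and 9.73 in the 1% diet, at 9.31, 9.12, 9.61 and 9.48 in the 0.1% diet and at 9.22, 9.43, 9.26 and 9.17 in control. Its difference was 0.42 ± 0.10 (adjusted p = 0.420). Syne1, which links the nuclear envelope to the cytoskeleton, was at 9.21, 8.82, 8.52 and 8.65 in the 1% diet and 8.23, 7.92, 8.39 and 8.15 in the 0.1% diet, near the control values of 8.15 to 8.36 (0.62 ± 0.14). For these genes the 1% rats stood above the 0.1% rats and the control rats alike. Fchsd2, of endocytosis and actin assembly, was higher by 0.70 ± 0.17 and Phtf2 by 0.79 ± 0.19. Rreb1, a zinc finger factor downstream of RAS, was higher by 0.38 ± 0.11, the RNA-binding protein Mex3b by 0.42 ± 0.13, Arhgap42 by 0.35 ± 0.08 and the junction protein Cgnl1 by 0.20 ± 0.06. The means of Mex3b, 6.47 at 0.1% and 6.88 at 1%, lie near the array medians of about 6.59, where no background signal was available. A second probe set of Arhgap42 gave 0.31. Of the 12 leading genes that were higher, Spink1, Arhgap42, Phtf2, Rreb1 and Mex3b had a lower mean in the 0.1% diet than in control by 0.13 log2 or more.

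**Figure D1:**
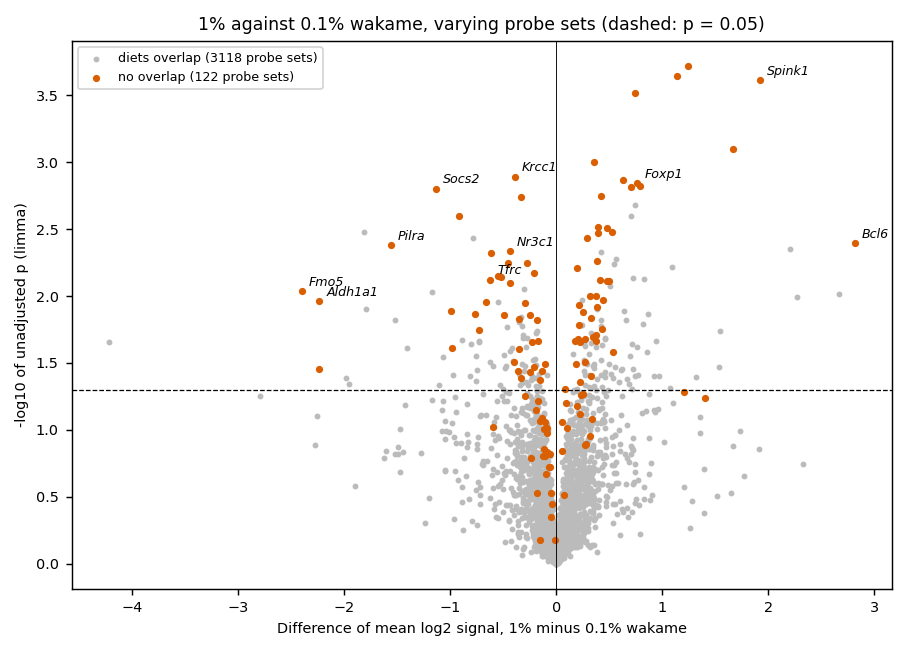
Difference between the doses (x, log2, 1% minus 0.1% diet) against −log10 of the unadjusted limma p (y) for the 3240 varying probe sets, orange where the doses did not overlap, with leading genes named and a dashed line at the unadjusted threshold. Bcl6 lies far to the right at 2.82 and Fmo5 and Aldh1a1 far to the left at −2.40 and −2.24, and no point passed an adjusted p of 0.05.

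Among the leading genes that were lower at 1%, Socs2 and Nr3c1 are genes of the hormone pathways described above. Socs2 was at 7.44, 6.92, 7.04 and 6.64 in the 1% diet, at 8.21, 8.82, 7.95 and 7.62 in the 0.1% diet and at 8.42, 7.89, 8.28 and 8.76 in control. The 1% rats were below every other rat, while the 0.1% and control rats overlapped (−1.14 ± 0.27 between the doses, 95% interval −1.74 to −0.54, adjusted p = 0.420). Nr3c1 was at 9.04, 9.49, 9.36 and 9.57 in the 1% diet, at 9.75, 9.98, 9.68 and 9.80 in the 0.1% diet and at 9.51, 9.58, 9.59 and 9.85 in control. Its difference was −0.44 ± 0.12 (95% interval −0.71 to −0.17, adjusted p = 0.514). Tat was at 7.23, 8.95, 7.80 and 8.36 in the 1% diet, at 10.52, 8.83, 9.75 and 10.50 in the 0.1% diet and at 8.38, 9.77, 9.57 and 8.78 in control. Here the 0.1% rats tended to the top and the 1% rats to the bottom, with 1 rat of each crossing (−1.81 ± 0.48, 95% interval −2.88 to −0.75, adjusted p = 0.498).

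The transferrin receptor Tfrc, which takes up iron, was at 6.79, 6.52, 7.10 and 7.20 in the 1% diet, at 7.79, 7.63, 7.47 and 7.21 in the 0.1% diet and at 7.54, 7.83, 8.01 and 7.38 in control. The highest 1% rat and the lowest 0.1% rat nearly met, and the difference was −0.62 ± 0.19 (adjusted p = 0.547). The brighter probe set of Tfrc gave −0.89 ± 0.33, with means of 10.38 in control, 10.37 at 0.1% and 9.48 at 1%, and its doses overlapped. Of the 9 varying genes of metal handling, 5 were higher and 4 lower at 1%. Mt1, the metallothionein that binds zinc and copper, was at 7.13, 7.05, 6.98 and 6.86 in the 1% diet and 6.79, 6.80, 6.55 and 6.79 in the 0.1% diet, with control values from 6.35 to 6.81 (0.27 ± 0.11). These Mt1 values lie near the array medians of about 6.59, where no background signal was available. Mt2A, another metallothionein, ranged from 9.72 to 12.09 in the 1% diet and from 7.53 to 11.31 in the 0.1% diet (1.39 ± 1.01), so the spread among rats of 1 diet was wider than the difference. Mt2A differed by 0.72 without the third array of the 0.1% diet and by 0.46 with the Gapdh covariate.

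Among the 12 leading genes that were lower at 1%, Fmo5 and Aldh1a1 held the widest differences. Fmo5, a flavin monooxygenase, was at 5.33, 9.38, 7.64 and 8.27 in the 1% diet, at 9.47, 11.06, 9.84 and 9.85 in the 0.1% diet and at 9.12, 7.97, 8.43 and 9.73 in control. Aldh1a1, which makes retinoic acid from retinal, was at 8.52, 6.88, 8.21 and 7.76 in the 1% diet, at 9.59, 9.97, 10.66 and 10.09 in the 0.1% diet and at 11.68, 7.83, 8.24 and 9.47 in control. The doses did not overlap in either gene, but the control rats overlapped both doses. The differences were −2.40 ± 0.75 for Fmo5 and −2.24 ± 0.73 for Aldh1a1 (limma adjusted p = 0.592 and 0.603). The 5.33 of Fmo5 lies below the array medians of about 6.59, where no background signal was available. Fmo5 differed by −1.63 without that array, the first of the 1% diet, and Aldh1a1 by −1.92 without the second. Crot, the peroxisomal carnitine octanoyltransferase, was at 7.72, 7.56, 8.38 and 7.70 in the 1% diet and 8.60, 9.48, 8.68 and 8.58 in the 0.1% diet, with control values from 7.86 to 9.25. Its difference was −0.997 ± 0.334 and that of its brighter probe set −0.77 ± 0.26, both without overlap.

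The remaining leading genes that were lower at 1% were Krcc1 (−0.39 ± 0.09), the clathrin adaptor Clint1 (−0.33 ± 0.08), Ankrd44, a subunit of a protein phosphatase complex (−0.27 ± 0.08), Nifk, a nucleolar partner of Ki-67 (−0.55 ± 0.16), Ahctf1, which builds nuclear pores (−0.52 ± 0.16), Irf2bp2, a corepressor (−0.44 ± 0.14), and Pilra, an inhibitory receptor of myeloid cells (−1.56 ± 0.43). Pilra was at 5.79, 7.04, 5.71 and 7.80 in the 1% diet and 8.10, 8.15, 8.37 and 7.96 in the 0.1% diet. Control rats ran from 6.90 to 8.04 and overlapped both doses. The values of 5.79 and 5.71 lie below the array medians of about 6.59, where no background signal was available. Beside Pilra, 12 markers of Kupffer cells and macrophages varied, 3 higher and 9 lower at 1%. Their median was −0.04 and none had an unadjusted p under 0.05. Their mean level ran from 8.73 to 9.22 in the 0.1% rats and from 8.64 to 9.21 in the 1% rats, and their part in the Pilra difference was not tested. The adjusted p of the 24 leading genes lay between 0.246 and 0.603.

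**Figure D2:**
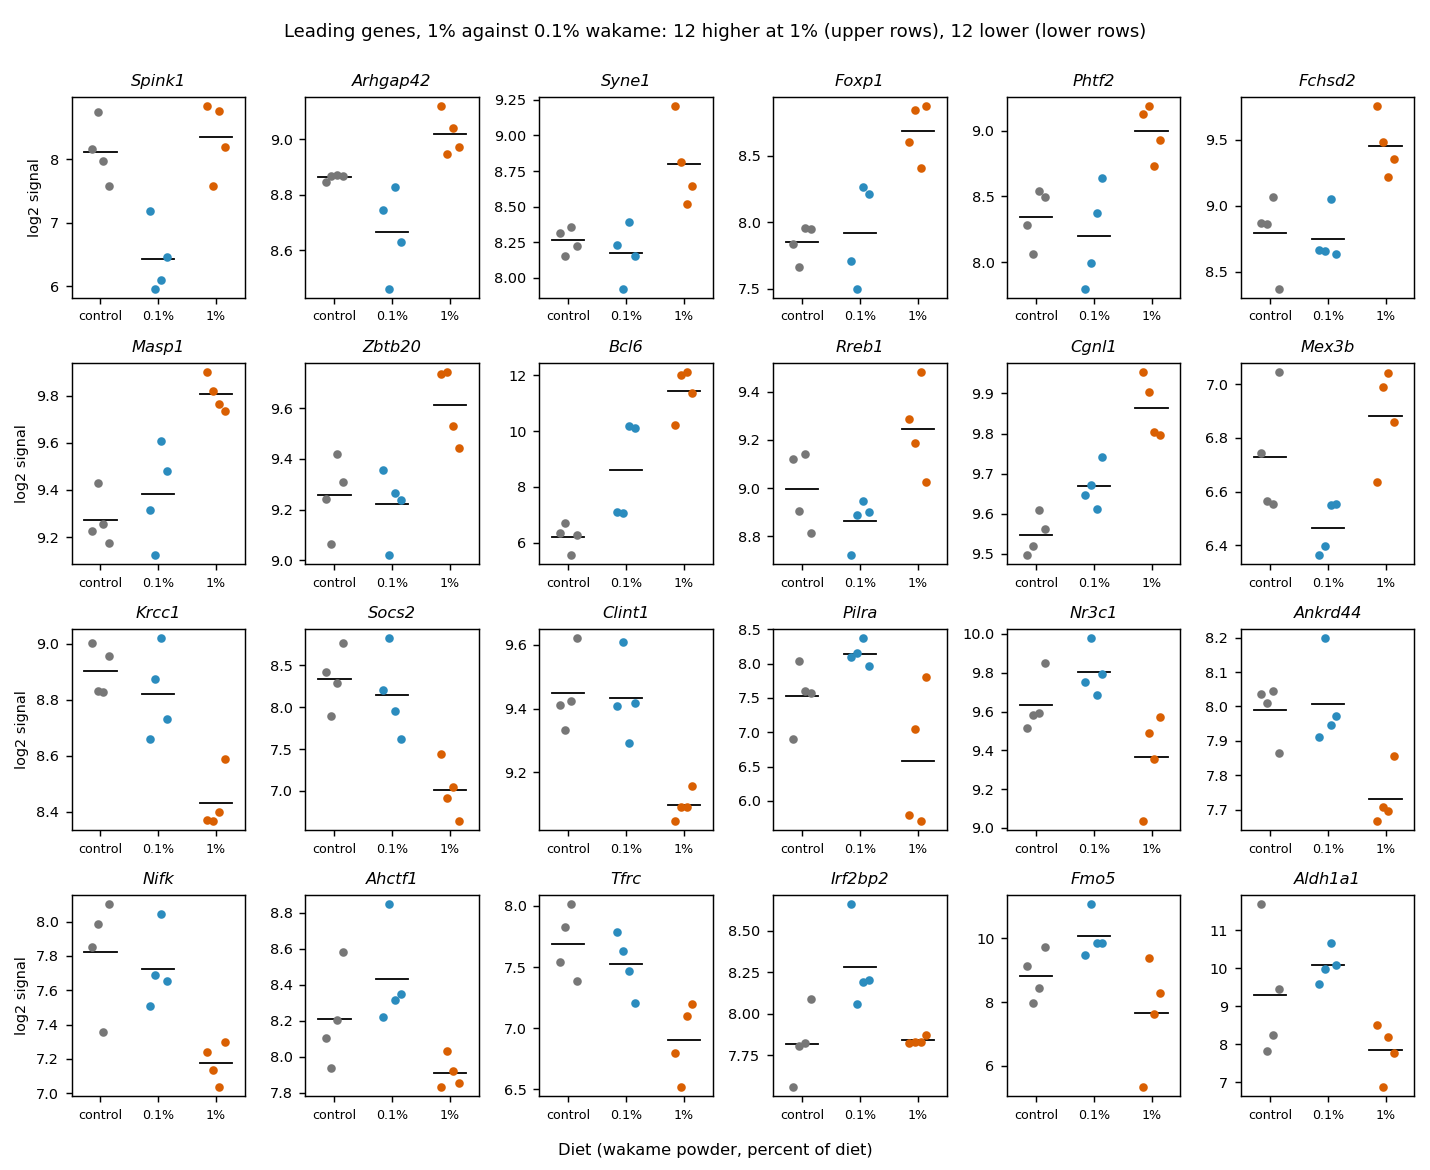
Log2 value of each rat (points; 4 per diet, with the mean as a bar) in the control, 0.1% and 1% diets for leading genes. In Foxp1 and Socs2 the 1% rats stand apart from both other diets, in Spink1 the 0.1% rats do, and in Bcl6 the 0.1% rats split into 2 near 7.1 and 2 near 10.1.

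A second contrast asked whether the step from 0.1% to 1% differed from the step from control to 0.1%. Of 3240 varying probe sets 0 (0%) passed in limma, with a lowest adjusted p of 0.411, and 174 (5.37%) had an unadjusted p under 0.05, 91 positive and 83 negative. Spink1 led it, since its value at 0.1%, near the array medians, was below both other diets (step difference 3.60 ± 0.61, adjusted p = 0.411). Per1, a clock gene that glucocorticoids raise, showed the opposite shape. It was at 7.73, 7.69, 7.62 and 8.14 in the 0.1% diet, at 7.60, 7.41, 7.15 and 7.58 in the 1% diet and at 7.17, 7.16, 7.39 and 7.40 in control. The 0.1% rats were the high ones, and the step difference was −0.87 ± 0.24 (adjusted p = 0.670). Irf2bp2 had the same order, with 8.66, 8.06, 8.19 and 8.20 at 0.1%, 7.83, 7.83, 7.83 and 7.87 at 1% and 7.56 to 8.09 in control (−0.90 ± 0.23), and its brighter probe set had means of 9.90 in control, 10.83 at 0.1% and 10.23 at 1%. Etl4 was at 7.78, 7.78, 7.72 and 7.84 in the 0.1% diet, below the 1% rats at 7.86 to 8.15 and the control rats at 8.00 to 8.27 (0.57 ± 0.14). These genes were picked for non-overlapping doses and the smallest p of the step difference, and are only a part of the counts above. The other positive ones picked were the proteasome activator Psme4 (0.50 ± 0.17), Phtf2 (0.94 ± 0.32), Mex3b (0.68 ± 0.22) and Arhgap42 (0.55 ± 0.14). The other negative ones picked were Pilra (−2.18 ± 0.74), Nr3c1 (−0.61 ± 0.21), Fmo5 (−3.65 ± 1.31) and Ahctf1 (−0.75 ± 0.27). Genes with overlapping doses were left out, though some had a smaller p than Fmo5 and Ahctf1, such as Apoa5 (−0.60 ± 0.18) and Tat (−2.59 ± 0.83). None of them passed. Mid1ip1, an activator of acetyl-CoA carboxylase, also had its lowest mean at 0.1%, with values from 8.35 to 9.00, beside 8.27 to 9.62 at 1% and 9.68 to 10.43 in control (step difference 1.84 ± 0.50).

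Lists of liver pathways were then read by the number of their varying genes on either side of 0, beside all 2301 varying genes, of which 1130 were higher and 1171 lower at 1%, with 78 higher and 60 lower at an unadjusted p under 0.05. For each gene the brightest varying probe set stood for it. Cytosolic ribosomal proteins, the protein part of the translating ribosome, were the list, among those with 6 or more varying genes, in which every varying member lay on the same side. Of 37 on the array 21 varied, and 21 of 21 were lower at 1%, by 0.04 to 0.24 log2 with a median of −0.08. The doses did not overlap in 7 of the 21, namely Rps23, Rpl34, Rpl7, Rpl11, Rps24, Rpl22 and Rpl23. That is 33.3%, beside 3.56% of all 2301 varying genes without overlap in either direction, where 40 of 82 were lower. Of the 21 genes 4 had an unadjusted p under 0.05 (19.0%, beside 6.00% of all varying genes). The list was chosen with earlier results of these data known. Rpl22 was at 11.50, 11.50, 11.48 and 11.52 in the 1% diet, at 11.60, 11.63, 11.60 and 11.62 in the 0.1% diet and at 11.67, 11.53, 11.49 and 11.62 in control. Rps24 differed by −0.23 ± 0.08, Rpl12 by −0.24 ± 0.10, Rpl11 by −0.14 ± 0.06 and Rpl22 by −0.11 ± 0.05, and none passed (adjusted p from 0.646 to 0.705).

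Averaged over the 21 genes, each set relative to its own mean over the 12 arrays, the 1% rats were at −0.092, −0.068, −0.098 and −0.041 and the 0.1% rats at −0.015, 0.074, 0.046 and −0.002. All 1% rats were below all 0.1% rats. The control rats, at 0.195, −0.040, −0.040 and 0.080, were scattered, with 2 of them at the level of the highest 1% rat. The 21 genes share their arrays and are not independent, so these values describe 8 livers. Left out in turn, the third array of the 1% diet was the 1 that changed the count, to 20 of 21. With the Gapdh 3′ minus 5′ signal as a covariate 21 of 21 remained lower, with a median of −0.087, and with quantile normalization the median was −0.077.

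**Figure D3:**
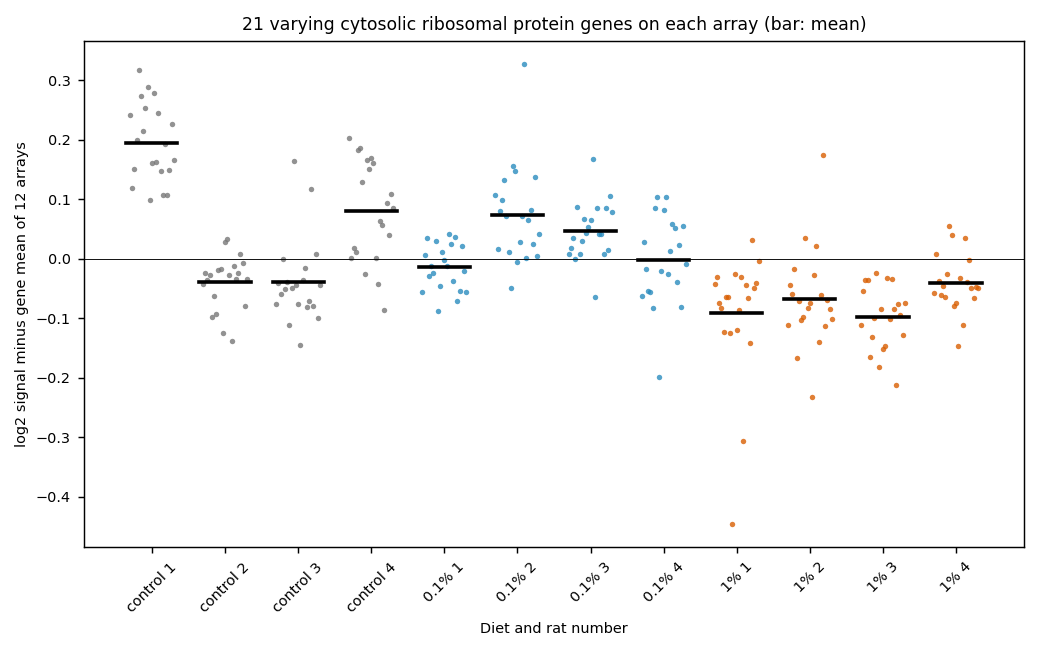
Log2 value of each of the 21 varying ribosomal protein genes minus its own mean over 12 arrays (y; points are genes, bars their mean) on each array by diet and rat (x). The bars of the 4 rats of the 1% diet lie between −0.098 and −0.041, below those of the 4 rats of the 0.1% diet, and those of the control rats spread from −0.040 to 0.195.

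In the other lists of protein and cell turnover most varying genes also lay on the lower side, by small amounts. Oxidative phosphorylation had 20 of 25 lower with a median of −0.03, the proteasome 10 of 13 with −0.06 and the cell cycle 11 of 13 with −0.12. None of these genes had an unadjusted p under 0.05. The respiratory chain subunits Cox6c and Sdhd were at −0.14 ± 0.08 and −0.11 ± 0.06, the proteasome subunits Psma5 and Psmc6 at −0.11 ± 0.07 and −0.08 ± 0.06, and Pcna, the sliding clamp of DNA replication, at −0.17 ± 0.11. Ccnb1, a mitotic cyclin, was at 6.59, 6.63, 6.69 and 6.48 in the 1% diet and 6.73, 6.84, 6.73 and 6.59 in the 0.1% diet, below control values of 6.92 to 7.23 (−0.13 ± 0.09). Its values at both doses lie near the array medians of about 6.59, where no background signal was available.

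Lipid synthesis showed the same lean with wide error. Of 18 varying genes of fatty acid synthesis 14 were lower at 1% with a median of −0.18. Of 16 genes of cholesterol synthesis 14 were lower with a median of −0.16. In neither list did the doses separate for any gene taken by its brightest probe set. The mean level of the cholesterol list was 9.73, 9.87, 9.86 and 8.86 in the 0.1% diet. In the 1% diet it was 9.08, 9.08, 9.61 and 9.68. Rat 4 of the 0.1% diet lay below every 1% rat, and the other 0.1% rats lay above every 1% rat. The overlap of the doses in this mean level thus came from that rat alone. Pnpla3, a lipid droplet protein induced by feeding, was at 5.59, 5.03, 8.28 and 9.74 in the 1% diet, at 10.97, 10.14, 11.11 and 5.53 in the 0.1% diet and from 11.09 to 14.07 in control (−2.28 ± 1.39). With 1 array left out it differed by between −1.57 (without the second array of the 1% diet) and −3.58 (without the fourth array of the 0.1% diet). Elovl6, which elongates palmitate, was at 7.02, 6.21, 7.12 and 8.26 in the 1% diet, at 8.38, 8.48, 8.22 and 6.89 in the 0.1% diet and from 8.70 to 10.46 in control (−0.84 ± 0.52). In both genes the fourth rat of the 0.1% diet lay among the 1% rats. Fasn, fatty acid synthase (−0.82 ± 0.80), Me1, malic enzyme (−1.05 ± 0.77), Thrsp, a lipogenic regulator (−1.01 ± 0.57) and Srebf1, the sterol regulatory factor (−0.48 ± 0.37) had 95% intervals that include 0. With 1 array left out Elovl6 ran from −1.21 to −0.53, Fasn from −1.27 to −0.36, Me1 from −1.48 to −0.58 and Thrsp from −1.65 to −0.70, each nearest 0 without the second array of the 1% diet, and Srebf1 from −0.66 to −0.29, nearest 0 without the first. With the Gapdh 3′ minus 5′ signal as a covariate Pnpla3 was at −0.96, Elovl6 at −0.35, Fasn at −0.30, Me1 at −0.35, Thrsp at −0.45 and Srebf1 at −0.30. Scd, the stearoyl-CoA desaturase, differed by 0.06 with an interval of −0.17 to 0.30. Sc5d, of late cholesterol synthesis, was at −0.73 ± 0.27 in 1 probe set, but at −0.18 and −0.08 in its brighter ones.

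**Figure D4:**
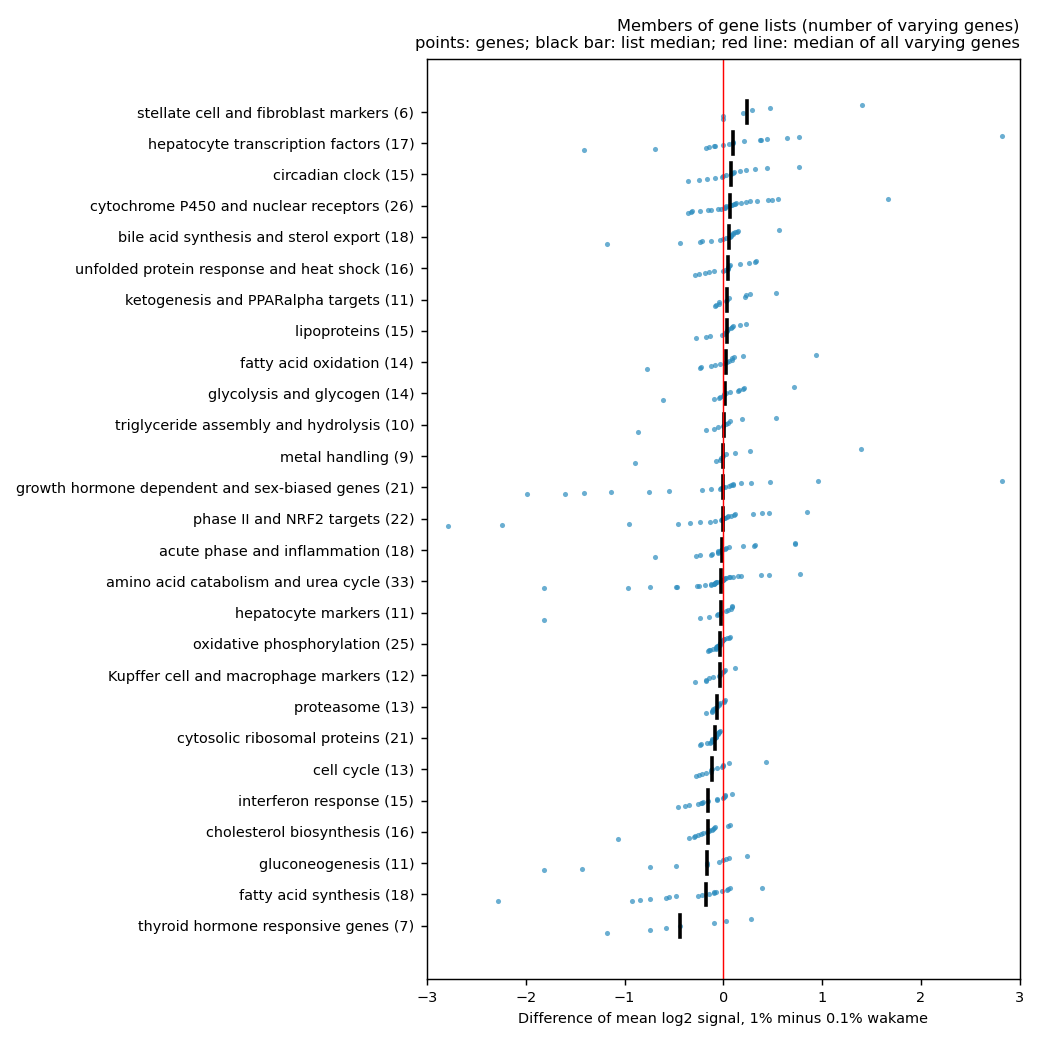
Difference between the doses (x, log2, 1% minus 0.1% diet) for the varying members of each gene list, 1 point per gene with the list median as a black bar and the median of all varying genes as a red line. All 21 ribosomal protein genes lie left of 0 within a narrow band, whereas growth hormone dependent genes reach from −1.98 to 2.82.

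Among 21 varying genes that depend on growth hormone or differ by sex, 10 were higher and 11 lower at 1% with a median of −0.00. By the brightest probe set, 19.0% had an unadjusted p under 0.05, beside 6.00% of all varying genes. These were Bcl6 on the higher side and Socs2, Onecut1 and Cyp2c12 on the lower side. Spink1 is also on this list and was not among them, since its brightest probe set gave 0.96 ± 0.48. The list was chosen with earlier results of these data known, and Bcl6 and Socs2 were already named here for their lack of overlap. Bcl6 and Onecut1 are also on the list of hepatocyte transcription factors. This share therefore does not show that the list as a group differed more than other genes. Igf1, the growth factor that growth hormone raises, differed by −0.03, and Cyp2c11, the main male-biased P450, by 0.18. In the circadian clock list 10 of 15 were higher with a median of 0.07. Nr1d1, the clock repressor REV-ERBalpha, was at 8.47, 9.21, 8.04 and 8.26 in the 1% diet, at 7.28, 7.24, 7.78 and 8.60 in the 0.1% diet and from 6.31 to 6.91 in control. The fourth rat of the 0.1% diet lay among the 1% rats again (0.77 ± 0.33, adjusted p = 0.697). With 1 array left out the difference of Nr1d1 ran from 0.53, without the second array of the 1% diet, to 1.06, without the fourth array of the 0.1% diet. Dbp, a clock output factor, was at 0.44 ± 0.34, and ran from 0.21 without the first array of the 0.1% diet to 0.85 without the fourth. Per2 was at 0.23 ± 0.23 and Cry1 at −0.25 ± 0.16.

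Genes of fat and sugar use were on both sides. Hacl1, a peroxisomal lyase for branched fatty acids, was at 10.93, 11.25, 10.29 and 10.49 in the 1% diet, at 9.78, 9.65, 8.97 and 10.80 in the 0.1% diet and from 8.76 to 9.39 in control. Its difference was 0.94 ± 0.35 (adjusted p = 0.646), and with 1 array left out it ran from 0.66, without the third array of the 0.1% diet, to 1.27, without the fourth. With the Gapdh 3′ minus 5′ signal as a covariate the difference of Hacl1 was 0.58 ± 0.35. Lpin2, a phosphatidate phosphatase of triglyceride assembly, was higher at 1% by 0.54 ± 0.21 without overlap, and by 0.34 without the second array of the 0.1% diet. Of 11 genes of gluconeogenesis 8 were lower with a median of −0.17, led by Tat, and Igfbp1, an insulin-repressed binding protein, was at −1.43. In this list only Tat had an unadjusted p under 0.05 (9.09%, beside 6.00% of all varying genes). By the brightest probe set, the doses overlapped in every gene of the list. Pck1, which commits carbon to glucose synthesis, was at −0.17 ± 0.22. Fatty acid oxidation had 8 of 14 genes higher with a median of 0.03, glycolysis and glycogen 9 of 14 with 0.02, and triglyceride assembly 5 of 10 with 0.01. Cpt1a, which lets fatty acids into mitochondria, was at 0.10 ± 0.27 in its dimmer probe set, −0.08 ± 0.30 in its brighter one and −0.31 with the Gapdh covariate, so its direction turned. Fabp1, the liver fatty acid carrier, was at −0.09 ± 0.04.

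In the list of bile acid synthesis with sterol export 11 of 18 were higher with a median of 0.06, and of 26 genes of P450s and their receptors 18 were higher with a median of 0.06. Cyp7a1, the rate-limiting enzyme of bile acid synthesis, was at 7.23, 5.76, 7.97 and 8.55 in the 1% diet, at 8.74, 8.00, 9.04 and 8.43 in the 0.1% diet and from 6.00 to 7.57 in control (−1.18 ± 0.56, 95% interval −2.41 to 0.06). It had its highest mean in the 0.1% diet, and the doses overlapped. The difference of Cyp7a1 was −0.64 without the second array of the 1% diet and −0.39 with the Gapdh covariate. Cyp8b1, which makes cholic acid, was at 0.08 ± 0.32 and the phospholipid transporter Abcb4 at 0.15 ± 0.21, with intervals of −0.63 to 0.79 and −0.33 to 0.62, and with the Gapdh covariate they turned to −0.22 and −0.18. Phase II and NRF2 targets were split 11 to 11, and thyroid hormone responsive genes had 5 of 7 lower with a median of −0.44, among them Cyp7a1, Thrsp and Dio1, the deiodinase that activates thyroid hormone (−0.44 ± 0.24).

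In the acute phase list 8 of 18 were higher with a median of −0.02. The 2 with an unadjusted p under 0.05 (11.1%, beside 6.00% of all varying genes) were cytokine receptors. Il1r1, the signalling receptor of interleukin-1, was at 10.01, 9.57, 9.40 and 9.19 in the 1% diet, at 8.53, 8.59, 8.88 and 9.28 in the 0.1% diet and from 8.70 to 9.35 in control (0.72 ± 0.22, adjusted p = 0.547). Il6st, the shared gp130 receptor of the interleukin-6 family, was higher by 0.42 ± 0.15, with 0.43 and 0.31 in its brighter probe sets. The interleukin-6 receptor Il6r was at 0.20 ± 0.34, and turned to −0.01 without the second array of the 0.1% diet. Interferon response genes had 10 of 15 lower with a median of −0.15, amino acid catabolism 21 of 33 with −0.03, and the unfolded protein response 10 of 16 higher with 0.05. Lipoproteins had 11 of 15 higher with 0.03, though Apoa5, a plasma triglyceride regulator, was lower by 0.28 ± 0.10 with overlap.

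Of the stellate cell and fibroblast markers 6 varied, 4 higher and 2 lower at 1% with a median of 0.24, and their mean level ran from 7.89 to 8.58 in the 0.1% rats and from 8.38 to 8.86 in the 1% rats. Lox, which cross-links collagen, was at 7.62, 8.14, 8.42 and 8.34 in the 1% diet and 6.36, 7.26, 7.49 and 6.60 in the 0.1% diet. Its difference was 1.20 ± 0.55 and 1.40 ± 0.66 in its 2 probe sets, both without overlap between the doses, but the control rats ran from 6.24 to 9.01 and overlapped both. In Hycc2 and Asap2 no rat of either dose lay within the range of the control rats, and the doses lay close to each other. Hycc2 was at 0.22 ± 0.12, with an interval of −0.05 to 0.49, and Asap2, a GTPase-activating protein, at −0.09 ± 0.06, with an interval of −0.23 to 0.04. Over all varying probe sets the median distance from the difference to the end of its 95% interval was 0.31 log2, before any adjustment for the number of probe sets tested.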

How the data were processed

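The authors deposited log2 values in a single table, an array to a column. That they are log2 was read from their range, 3.15 to 14.6. Their background correction, normalization and summarisation were not given in the sources used here. Per the submitters' processing notes, R 2.7.2 was used. Scanner files were not used, and precision is limited by the number of arrays. Per the labels, each array is a separate rat.

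Arrays were grouped by their diet labels. limma 3.58.1 in R 4.3.3 was fitted to all 12 arrays with 1 mean per diet (lmFit, eBayes with a variance trend) on probe sets that are not controls and have an SD above 0.01 log2, and tested on simulated data. The threshold was an adjusted p of 0.05, two-sided. Symbols were taken from the annotation of the platform: of 31099 probe sets 20832 had 1 symbol, 436 several and 9831 none named here, and 20764 identifiers matched the RefSeq table of GRCr8. Of the varying probe sets 2583 had 1 symbol, for 2301 genes.

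Named genes, 1 probe set per gene by smallest unadjusted p, were those with non-overlapping doses and the smallest p (12 per direction; 6 per direction for the step difference), up to 4 members per list with p under 0.05 or else up to 2, and a fixed set. Members and lists were chosen with earlier results of these data known. Replicate numbers did not pair the samples: deviations from the diet means of same-numbered arrays correlated at −0.115 to 0.055. Alternatives covered the SD limit, trend, arrays in the fit, replicate block, normalization, dim and multiple probe sets, Gapdh signal, array weights and leaving out each array.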

Additional observations from a re-analysis of the deposited data

Results flagged for a closer look

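Of 288 groups of 4 rats checked, 13 held 1 rat far from the other 3, where chance flags about 1 in 20 groups. In the 0.1% diet Fchsd2 was at 9.05 in rat 3 (others 8.64 to 8.66), Crot at 9.48 in rat 2 (8.58 to 8.68), Ppp1r3b at 10.3 in rat 3 (10.86 to 10.95), Il6st at 9.14 in rat 4 (8.71 to 8.73), Mt1 at 6.55 in rat 3 (6.79 to 6.80), Psmc6 at 7.81 in rat 3 (7.66 to 7.68) and Elovl6 at 6.89 in rat 4 (8.22 to 8.48). In the 1% diet Krcc1 was at 8.59 in rat 4 (8.37 to 8.40), Irf2bp2 at 7.87 in rat 4 (7.83 in the others), Dio1 at 7.31 in rat 1 (7.08 to 7.11) and Apoa5 at 11.1 in rat 3 (11.44 to 11.49). In the control diet Onecut1 was at 12.2 in rat 4 (10.91 to 11.07) and Il6st at 8.49 in rat 1 (8.66 to 8.67).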

How the results depend on the processing

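In limma, 0 probe sets passed between the doses under every alternative that kept all 12 arrays or the 8 of both doses and left flat probe sets out. In these alternatives the difference of the steps, which needs the control arrays, was fitted only on all 12 arrays, and 0 passed. Between the doses 178 to 246 had an unadjusted p under 0.05, or 138 with 1 probe set per gene, where 2301 were tested. Without the SD limit 6 passed between the doses and 8 for the steps, all of them flat probe sets, 1132 had an unadjusted p under 0.05 between the doses and 343 did not overlap. With 1 array left out, 0 to 1 passed between the doses and 0 to 1 for the steps, with 168 to 264 at an unadjusted p under 0.05 between the doses, and 122 to 282 did not overlap. The 1 that passed, without the first array of the 0.1% diet, was a probe set with no gene named here (−1.05 ± 0.10, limma adjusted p = 0.00508). With the replicate number as a block, 0 passed, the lowest adjusted p was 0.706 and 194 had an unadjusted p under 0.05; same-numbered arrays share only a number. Over 96 named genes, 2165 of 2201 alternative values kept their direction and their side of the threshold, 0 came to pass and 36 reversed, in 15 genes whose differences were small. Reversed with the Gapdh covariate were Cpt1a (−0.31), Lyve1 (0.011), Ccl5 (0.065), Ptprc (0.0098), Abcb4 (−0.18) and Cyp8b1 (−0.22), with array weights Cpt1a (−0.0041) and Stab2 (0.023), with the brightest probe set Cpt1a (−0.084), with median centring Cfd (−0.00099) and with quantile normalization Cfd (−0.012). With 1 array left out the ranges were −0.042 to 0.34 for Abcb4, −0.097 to 0.084 for Alas2, −0.018 to 0.16 for Anxa4, −0.16 to 0.10 for Ccl5, −0.045 to 0.27 for Cela1, −0.16 to 0.093 for Cfd, −0.081 to 0.30 for Cpt1a, −0.13 to 0.28 for Cyp8b1, −0.29 to 0.052 for Fcer1g, −0.011 to 0.39 for Il6r, −0.0032 to 0.25 for Krt18, −0.083 to 0.019 for Lyve1, −0.13 to 0.11 for Ptprc, −0.013 to 0.11 for Scd and −0.079 to 0.10 for Stab2. The cause was not tested.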

Other observations

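Some probe sets outside the naming rule, chosen after their values were seen, differed widely between the doses. Ubd, the ubiquitin-like protein FAT10 that cytokines induce, was at 9.95, 12.10, 11.03 and 12.42 in the 0.1% diet, at 4.59, 9.05, 4.82 and 10.15 in the 1% diet and at 9.96, 4.58, 10.66 and 9.96 in control. The 1% rats were split into 2 low and 2 higher values, 1 control rat was also low, and the difference was −4.22 ± 1.57 log2 (limma adjusted p = 0.646). Ddhd1, a phospholipase of phosphatidic acid, differed by −1.80 ± 0.60, and Gc, the vitamin D binding protein, by 1.55 ± 0.55 in 1 probe set and by −0.02 ± 0.02 in its brighter one.

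The probe set with the lowest p had no gene named here. It had means of 6.25 in control, 6.68 at 0.1% and 7.92 at 1% (1.24 ± 0.22, adjusted p = 0.246), and its doses did not overlap. Another such probe set had means of 9.12 in control, 7.48 at 0.1% and 6.56 at 1%. It lay lower at each dose, and the doses differed by −0.92 ± 0.23. A further pair with no gene named here split the rats of the 0.1% diet. In the first, rats 1 to 4 were at 6.12, 6.49, 10.14 and 8.58, and in the second at 5.83, 6.22, 8.60 and 7.39. Rats 3 and 4 were also the high ones of that diet for Bcl6.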
